A study of Mus musculus with 12 samples.

Results

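Fgf9, the 4 fibroblast growth factor (FGF) receptor genes Fgfr1, Fgfr2, Fgfr3 and Fgfr4, and the FGF feedback genes Spry2, Spry4 and Dusp6 were followed in mouse gonads labelled as wild type or as knockout for Cbx2. The members were all probe sets that the array's annotation assigns to 1 of these 8 genes and to no other. This gave 22 of 45037 non-control probe sets, and 8 of 18193 annotated genes. Within these genes, no measured value entered the choice of probe sets. The genes themselves were chosen with earlier results of these data known, so counts of calls among them are a description and not a test. Fgfr4 had 5 probe sets, Spry4 4, Fgfr1 and Fgfr2 3 each, Fgf9, Fgfr3 and Spry2 2 each, and Dusp6 1.

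E11.5 gonads, of the embryonic day at which testis and ovary begin to diverge, were compared between Cbx2 knockout (KO) and wild-type (WT) embryos of each chromosomal sex, in 4 groups (WT XX, WT XY, KO XX and KO XY) of 3 Affymetrix arrays each. All embryos, WT included, had Cbx2 heterozygous parents, and counts of tail somites set their stage. The knockout is labelled only as Cbx2 KO, and the sources used here name neither the mouse strain nor the deleted part of the gene. Gonadal cells were cut by laser from frozen 30 µm sections, with GATA4 staining and tissue shape as the guide, and each array carried RNA of a pool of 2 or 3 individuals, amplified in 2 cycles from 15 ng. The spread between arrays is therefore a spread between pools and not between embryos. In such tissue samples, fewer cells of a type and less RNA per cell cannot be told apart.

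FGFs are secreted ligands that bind receptor tyrosine kinases together with heparan sulfate, and the receptors pass the signal mainly through RAS and the kinase ERK. In the XY gonad Fgf9 is known as a testis-promoting ligand that helps to keep Sox9 on and Wnt4 low, and Fgfr2 is its best known receptor there. Sprouty proteins, such as those of Spry2 and Spry4, restrain receptor signalling, and Dusp6 encodes a phosphatase that removes the activating phosphates from ERK. All 3 are commonly read as products of FGF signalling itself. Cbx2 encodes a chromobox protein of the Polycomb repressive complex PRC1, whose targets in mammals are often rich in CG dinucleotides.

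For this reason, the 250 bases upstream of the transcription start were read from RefSeq (build GRCm38.p6), and the CG dinucleotides were counted. Of the members looked up, which left out Spry4, 6 had an entry and Fgfr1 had none. Fgfr3 had a pair of start sites. Shown are the ligand Fgf9, the receptor with the clearest difference between genotypes (Fgfr3, first start site), the receptor that differed in the opposite direction (Fgfr2) and the feedback gene Spry2, each 5′ to 3′ on the strand of its gene, with every CG in capitals.
Fgf9, chr14:58072436-58072685, plus strand: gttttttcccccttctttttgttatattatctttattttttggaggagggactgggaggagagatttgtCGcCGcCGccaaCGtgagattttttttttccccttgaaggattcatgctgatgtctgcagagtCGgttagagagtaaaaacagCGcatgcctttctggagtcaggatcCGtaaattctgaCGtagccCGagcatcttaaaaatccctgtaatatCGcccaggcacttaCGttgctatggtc
Fgfr3, chr5:33721474-33721723, plus strand: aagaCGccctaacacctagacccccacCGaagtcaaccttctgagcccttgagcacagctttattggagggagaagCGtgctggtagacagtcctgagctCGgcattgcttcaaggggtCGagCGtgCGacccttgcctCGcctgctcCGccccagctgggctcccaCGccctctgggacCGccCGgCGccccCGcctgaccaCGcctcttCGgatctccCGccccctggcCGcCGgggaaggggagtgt
Fgfr2, chr7:130266809-130267058, minus strand: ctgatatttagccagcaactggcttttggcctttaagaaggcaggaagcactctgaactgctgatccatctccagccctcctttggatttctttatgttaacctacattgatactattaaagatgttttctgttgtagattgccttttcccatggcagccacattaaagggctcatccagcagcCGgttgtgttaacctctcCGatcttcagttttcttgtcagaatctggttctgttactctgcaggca
Spry2, chr14:105896820-105897069, minus strand: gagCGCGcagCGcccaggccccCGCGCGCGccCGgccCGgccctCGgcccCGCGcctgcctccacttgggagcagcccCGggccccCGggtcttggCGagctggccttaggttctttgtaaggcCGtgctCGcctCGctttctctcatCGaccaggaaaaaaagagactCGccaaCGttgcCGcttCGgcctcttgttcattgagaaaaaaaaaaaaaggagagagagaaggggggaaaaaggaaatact
The Fgf9 window held 11 CG, the Fgfr3 window 19, the Fgfr2 window 2 and the Spry2 window 23. Among 32851 RefSeq promoter windows of this length the median was 6, and 92.1% held at least 1 CG, which reads the same on both strands. As many CG as in Spry2 or more were found in 13.3% of the windows, as many as in Fgfr3 in 19.7%, as many as in Fgf9 in 35.6% and as many as in Fgfr2 in 81.2%. The second Fgfr3 window held 24, the Fgfr4 window 15 and the Dusp6 window 16. The letters CCGGAA, a core that ETS factors of the ERK pathway can bind, occurred on either strand in 12% of all windows and among the 7 member windows only in that of Fgfr4, 1 time. These counts describe the sequence alone, since neither Cbx2 binding nor methylation was measured.

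Several features of the whole series bear on what follows. Xist and Eif2s3y matched the labelled sex in all arrays. The level of Cbx2 on the log2 scale was higher in the arrays labelled KO (9.27 to 9.58) than in those labelled WT (8.46 to 9.04), and a source label on the WT arrays reads KO XX instead, so KO and WT here follow the titles and the genotype field. As the deleted part is not known, this signal does not check the genotype, and knockout and wild type stand for the labels throughout. All 8 gonadal somatic marker genes were measured, with mean log2 levels of 10.57 to 10.89 in WT arrays and 10.22 to 10.58 in KO arrays. Between genotypes over both sexes 3 of these 8 were lower in KO, namely Nr5a1 (-2.19), Gata4 (-1.45), whose protein guided the dissection, and Lhx9 (-1.08), and 3 were higher, namely Cbx2 itself, Tcf21 and Pdgfra. Among all 18193 genes 21.9% changed in this comparison, 12.5% upward and 9.44% downward. WT XX replicate 1 stood apart, with a mean correlation of 0.988 with the other arrays of its group, against 0.991 to 0.996 elsewhere. The Gapdh 3′ minus 5′ signal, a measure of RNA integrity, was higher in KO XY, at 4.91 ± 0.12 (log2, SD, n = 3), than in the other groups, with 4.13 ± 0.38 for WT XY, 4.30 ± 0.45 for WT XX and 4.05 ± 0.22 for KO XX. In the same comparison 14 of 16 endothelial markers fell, with mean log2 levels of 7.36 to 7.74 in WT arrays and 6.43 to 7.21 in KO arrays. Macrophage markers rose in 5 of 13 cases (6.39 to 6.74 in WT, 6.79 to 7.44 in KO), germ cell markers in 5 of 11 (7.67 to 8.11 in WT, 8.04 to 8.33 in KO) and coelomic epithelium markers in 6 of 10, with 2 lower (7.99 to 8.32 in WT, 8.28 to 8.64 in KO). Of 9 mesonephros markers 1 rose and 2 fell, and of 6 erythroid markers 1 fell. The part of these cell types, and of the gonadal somatic markers, in the FGF gene values was not tested.

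Some receptor probe sets shifted with genotype over both sexes, those of Fgfr1 and 1 of Fgfr3 upward and 1 of Fgfr2 downward. Fgfr4 was not called, and no probe set of any member passed the test between the sexes. By limma with Benjamini-Hochberg adjustment over all 45037 probe sets, 4 of 22 member probe sets changed between KO and WT in XY gonads (18.2%), 3 upward and 1 downward, where 8.89% of all probe sets changed, 4.24% upward and 4.65% downward. In XX gonads 5 changed (22.7%), 4 upward and 1 downward, against 9.35% of all, 5.77% upward and 3.58% downward. Averaged over both sexes, 7 changed (31.8%), 5 upward and 2 downward, against 17.6% of all, 9.84% upward and 7.73% downward. The median difference of the 22 on the log2 scale was -0.003 for XY gonads, -0.11 for XX gonads and -0.06 with the sexes averaged, beside 0.01, -0.03 and -0.01 for all probe sets, so the members did not move one way as a group. Arrays of the KO and WT did not overlap for 8 of the 22 in XY and for 7 in XX, where 30.7% and 23.7% of all probe sets were so separated.

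**Figure D1:**
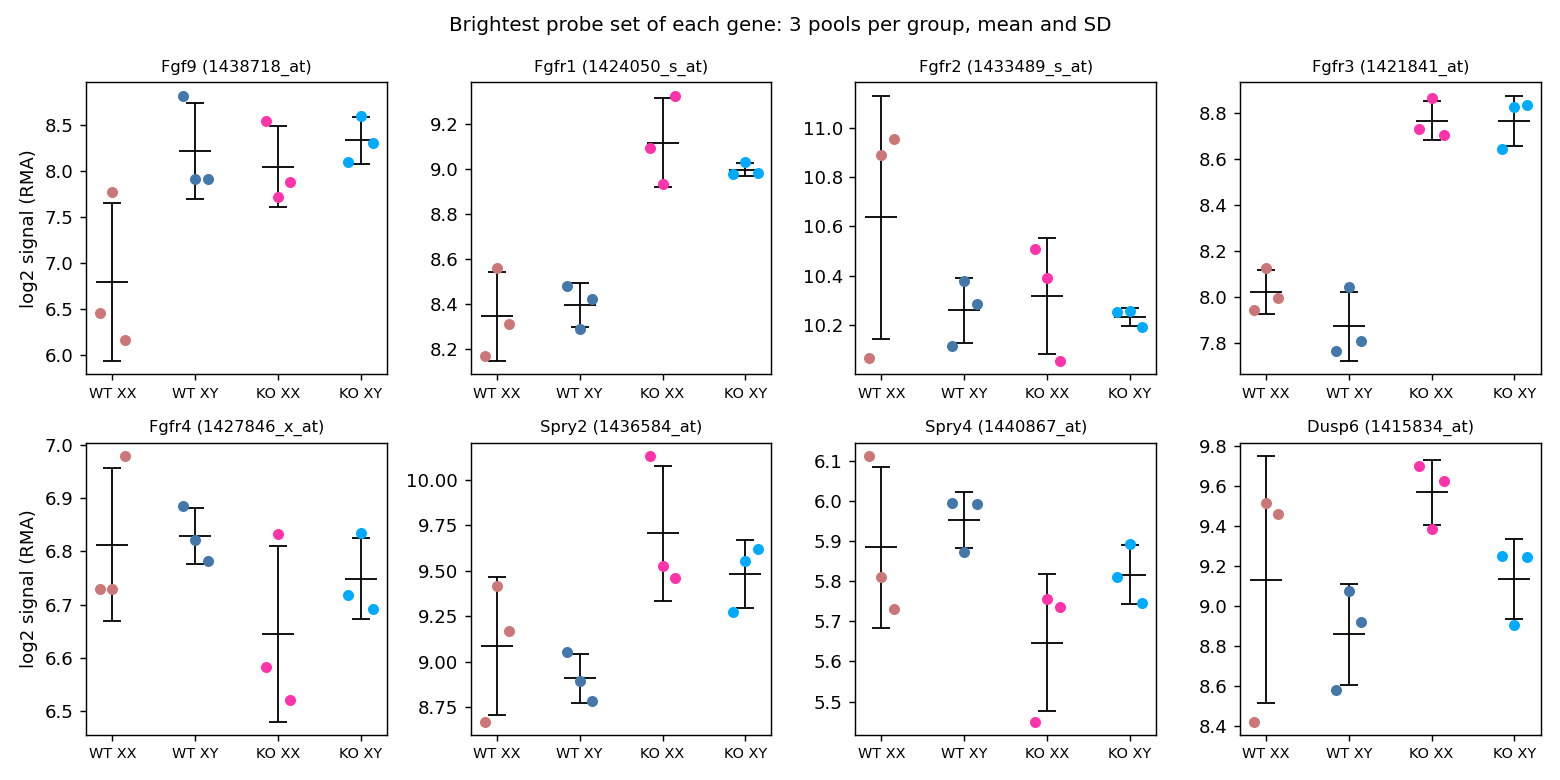
Log2 signal (vertical axis, a separate scale in each panel) of the brightest probe set of each member gene in the 4 groups. Points are single pools, and bars show the mean and SD of 3 pools. For Fgfr1 and Fgfr3 all 6 KO pools lie above all 6 WT pools, whereas Fgf9 is lowest in WT XX, with 1 pool of that group among the KO values.

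Fgf9, the ligand, was at its lowest in WT XX gonads and at similar levels in the other groups by its brighter probe set, 1438718_at. Its log2 signal was 6.45, 7.77 and 6.16 in the 3 WT XX pools and 8.82, 7.91 and 7.92 in the WT XY pools. In the knockout it was 8.54, 7.72 and 7.88 in XX and 8.10, 8.60 and 8.30 in XY. A pair of WT XX pools thus lay below every other array, and the remaining WT XX pool overlapped KO XX. The group means in rising order were 6.79 ± 0.86 in WT XX, 8.05 ± 0.44 in KO XX, 8.22 ± 0.52 in WT XY and 8.33 ± 0.25 in KO XY (SD, n = 3), and the upper 3 lay within their spread of one another.

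In XX gonads Fgf9 was higher in the arrays labelled KO than in those labelled WT by 1.26 ± 0.36 on the log2 scale (standard error; 2.39-fold, 95% interval of the log2 difference 0.48 to 2.03, adjusted p = 0.042 by limma). This was the least stable of the member calls. It ended in 15 of 22 alternatives, among them the omission of any of 10 of the 12 arrays, at up to adjusted p = 0.157 without KO XX replicate 1. It ended without WT XX replicate 1 (1.09, adjusted p = 0.121), without WT XX replicate 3 (0.94, adjusted p = 0.149) and without single arrays of the groups not compared, such as KO XY replicate 1 (adjusted p = 0.0518). Without WT XX replicate 2, the high pool, the difference was 1.75 (adjusted p = 0.00209). In XY gonads the value for Fgf9 was 0.12 ± 0.36 (interval -0.66 to 0.89, adjusted p = 0.915), an interval that takes in both a fall and a rise of over 1.5-fold. Averaged over both sexes it was 0.69 ± 0.26 (adjusted p = 0.0826), and with single arrays left out it lay between 0.53 and 0.93 (adjusted p up to 0.183). It passed without WT XX replicate 2 (0.93, adjusted p = 0.00425) and without WT XY replicate 1 (0.84, adjusted p = 0.0432). The difference between the XX and XY knockout effects was itself -1.14 ± 0.51 (interval -2.23 to -0.05, unadjusted p = 0.0421, adjusted p = 0.771), so a genotype effect on Fgf9 restricted to XX was not shown.

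The dimmer Fgf9 probe set, 1420795_at, did not repeat this pattern. Its means were 6.79 ± 0.13 in WT XX and 6.81 ± 0.34 in WT XY, against 6.86 ± 0.31 in KO XX and 7.05 ± 0.06 in KO XY, and the KO XX pools at 7.22, 6.71 and 6.65 overlapped the WT XX range of 6.64 to 6.87. Its difference between KO and WT was 0.07 ± 0.18 in XX (adjusted p = 0.853) and 0.24 ± 0.18 in XY (adjusted p = 0.510). Across the 12 arrays, which include the group differences, the correlation of both Fgf9 probe sets was r = 0.514. Averaged over both probe sets, Fgf9 differed by 0.66 in XX (adjusted p = 0.0887), so the call rests on the brighter probe set.

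**Figure D2:**
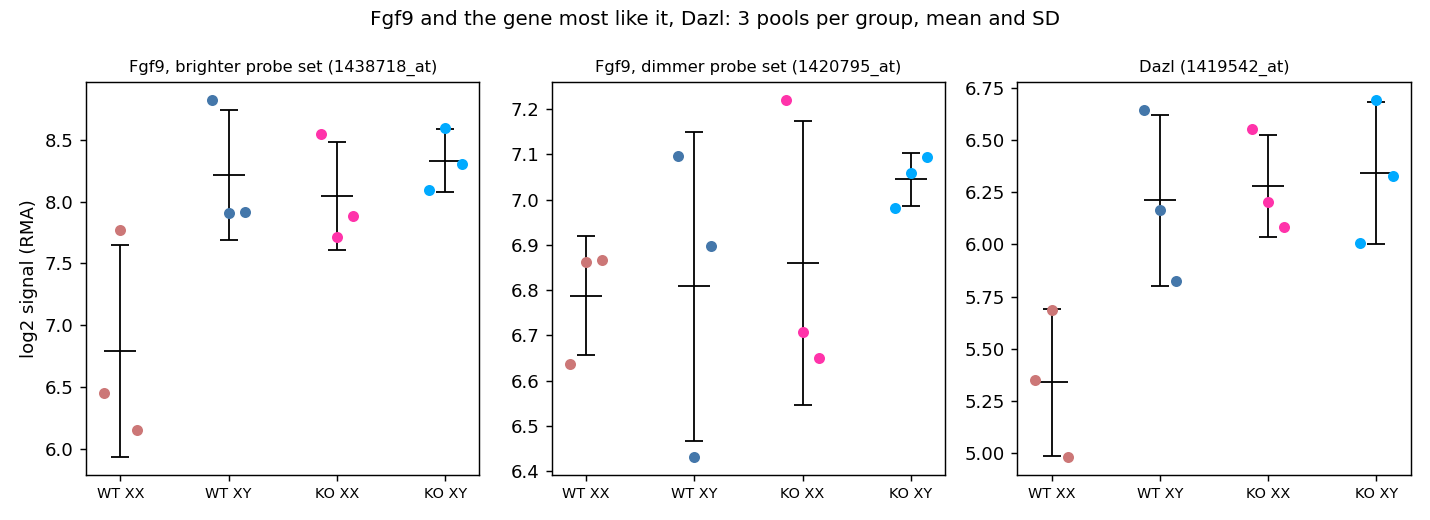
Log2 signal of the brighter and the dimmer Fgf9 probe set and of Dazl, an RNA-binding protein gene of germ cells, in the 4 groups (points are pools, bars the mean and SD of 3 pools, vertical scales differ between panels). The brighter Fgf9 probe set and Dazl are both lowest in WT XX, whereas the means of the dimmer Fgf9 probe set are nearly the same in WT XX (6.79) and WT XY (6.81).

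Of all other genes, by their brightest probe set, the one whose signal followed the brighter Fgf9 probe set most closely was Dazl (Pearson r = 0.942 over the 12 arrays), ahead of Cav1, a caveolar membrane protein gene (r = 0.910), and Nexn (r = 0.891). Dazl lay at 5.35, 5.69 and 4.98 in WT XX and at 6.65, 6.16 and 5.83 in WT XY. It was at 6.55, 6.20 and 6.08 in KO XX and at 6.01, 6.69 and 6.33 in KO XY. As for Fgf9, WT XX was the low group and replicate 2 its highest pool. Dazl rose in KO XX by 0.94 ± 0.23 (adjusted p = 0.0192 by limma). Of the other germ cell markers, Ddx4 had r = 0.865 with Fgf9 and the remaining 9 lay between -0.081 and 0.413. These correlations describe 12 arrays that share the group differences, and the part of germ cells in the Fgf9 values was not tested.

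Fgfr3 had the clearest difference among the receptors. Its brighter probe set, 1421841_at, read 7.94, 8.13 and 7.99 in WT XX and 7.76, 8.04 and 7.81 in WT XY, against 8.73, 8.86 and 8.70 in KO XX and 8.64, 8.82 and 8.83 in KO XY (log2). All 6 KO pools lay above all 6 WT pools, as did those of 8.17% of all probe sets in one direction or the other. Fgfr3 rose by 0.89 ± 0.11 in XY (1.86-fold, adjusted p = 0.000154 by limma) and by 0.75 ± 0.11 in XX (1.68-fold, adjusted p = 0.000772). Averaged over both sexes the rise was 0.82 ± 0.08 (1.77-fold, adjusted p = 5.98e-06), and the call held in all alternatives run. The dimmer Fgfr3 probe set, 1425796_a_at, lay at 0.06 ± 0.08 (adjusted p = 0.657). For the mean of both probe sets the difference was 0.44 over both sexes, 0.54 in XY gonads and 0.34 in XX gonads.

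Fgfr1, the receptor with a broad mesenchymal expression in embryos, rose in both sexes. Its brightest probe set, 1424050_s_at, read 8.17, 8.56 and 8.31 in WT XX and 8.48, 8.29 and 8.42 in WT XY, against 9.09, 8.93 and 9.33 in KO XX and 8.98, 9.03 and 8.98 in KO XY. Here too the lowest KO pool lay above the highest WT pool. The rise was 0.77 ± 0.13 in XX (1.71-fold, adjusted p = 0.00153), 0.60 ± 0.13 in XY (1.52-fold, adjusted p = 0.00881) and 0.69 ± 0.09 over both sexes (1.61-fold, adjusted p = 0.000104). The call in XY ended with the Gapdh measure as a covariate (0.66, adjusted p = 0.123), and the other calls of this probe set held in all alternatives.

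The other Fgfr1 probe sets moved in the same direction. Over both sexes 1425911_a_at rose by 0.51 ± 0.11 (adjusted p = 0.00362) and 1436551_at by 0.44 ± 0.11 (adjusted p = 0.00993). Within a sex each was called in 1 only: 1425911_a_at in XX (0.66 ± 0.15, adjusted p = 0.0116) and 1436551_at in XY (0.52 ± 0.15, adjusted p = 0.0467). The latter call ended in 11 of 20 alternatives, at up to adjusted p = 0.241, among them the fits without KO XX replicates 2 or 3, KO XY replicates 1 or 3, WT XX replicate 3 and WT XY replicates 2 or 3. The differences between the sexes in these effects, -0.31 ± 0.21 for 1425911_a_at and 0.15 ± 0.21 for 1436551_at, did not pass the test (adjusted p = 0.793 and adjusted p = 0.891). All 3 Fgfr1 probe sets thus passed over both sexes, which no other member with several probe sets did.

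Fgfr2, the receptor linked to Fgf9 in the testis, went the other way where it changed. Probe set 1420847_a_at read 6.28, 6.18 and 6.50 in WT XX and 5.92, 6.12 and 6.22 in WT XY, against 5.30, 5.9 and 5.83 in KO XX and 5.72, 5.18 and 5.71 in KO XY. Every KO pool was below every WT pool. Over both sexes it fell by 0.60 ± 0.13 on the log2 scale (to 0.661-fold, adjusted p = 0.00434), a call that held in all alternatives. Within a sex the difference was -0.65 ± 0.18 in XX (adjusted p = 0.0373) and -0.55 ± 0.18 in XY (adjusted p = 0.0765). The XX call ended in 9 of 20 alternatives, among them without KO XX replicate 1 (-0.46, adjusted p = 0.147), without WT XX replicate 1 (-0.67, adjusted p = 0.0639) and without WT XX replicate 3 (-0.55, adjusted p = 0.117), and also without KO XX replicate 3 or WT XY replicate 2. The XY value passed without KO XX replicate 1 (adjusted p = 0.0398), with array weights (-0.50, adjusted p = 0.0269) and with only the groups compared (adjusted p = 0.0436). With single arrays left out it lay between -0.64 and -0.37, at up to adjusted p = 0.293.

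The brightest Fgfr2 probe set, 1433489_s_at, was not called between genotypes, with -0.17 ± 0.14 over both sexes (interval -0.47 to 0.13, adjusted p = 0.470). Its WT XX pools read 10.07, 10.89 and 10.95, and the low one was replicate 1, the array that stood apart. Without it the Fgfr2 difference was -0.60 in XX (adjusted p = 0.0167) and -0.32 over both sexes (adjusted p = 0.0346), whereas without WT XX replicate 3 it was -0.16 in XX (adjusted p = 0.722) and -0.09 over both sexes (adjusted p = 0.734), beside -0.32 in XX with all arrays. Over both sexes it also passed with the Gapdh covariate (-0.36, adjusted p = 0.0435). The third probe set, 1443211_at, lay at -0.27 ± 0.12 over both sexes (adjusted p = 0.166), while the mean of all 3 fell by 0.35 (adjusted p = 0.0109). All 3 Fgfr2 probe sets were below 0 in each sex, at -0.03 to -0.55 in XY and -0.31 to -0.65 in XX.

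Fgfr4, a receptor better known from liver and developing muscle, was not called in any comparison by any of its 5 probe sets. Their group means lay between 3.12 and 6.83, and differences over both sexes ranged from -0.15 to -0.01. The brightest, 1427846_x_at, had means of 6.81 ± 0.14 in WT XX and 6.83 ± 0.05 in WT XY, against 6.65 ± 0.17 in KO XX and 6.75 ± 0.08 in KO XY, with a knockout difference of -0.12 ± 0.08 (interval -0.30 to 0.05, adjusted p = 0.362). The intervals of all 5 Fgfr4 probe sets over both sexes ended at 0.15 or lower. They thus lay below the rises of the brightest Fgfr1 (0.69) and Fgfr3 (0.82) probe sets. The other Fgfr4 probe sets were dimmer. For Fgfr3 the dimmer probe set, at 0.06, did not show the rise of the brighter one, so a rise of Fgfr4 is not excluded by these values. The suffix of 1427846_x_at marks probes that can also match other sequences.

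**Figure D3:**
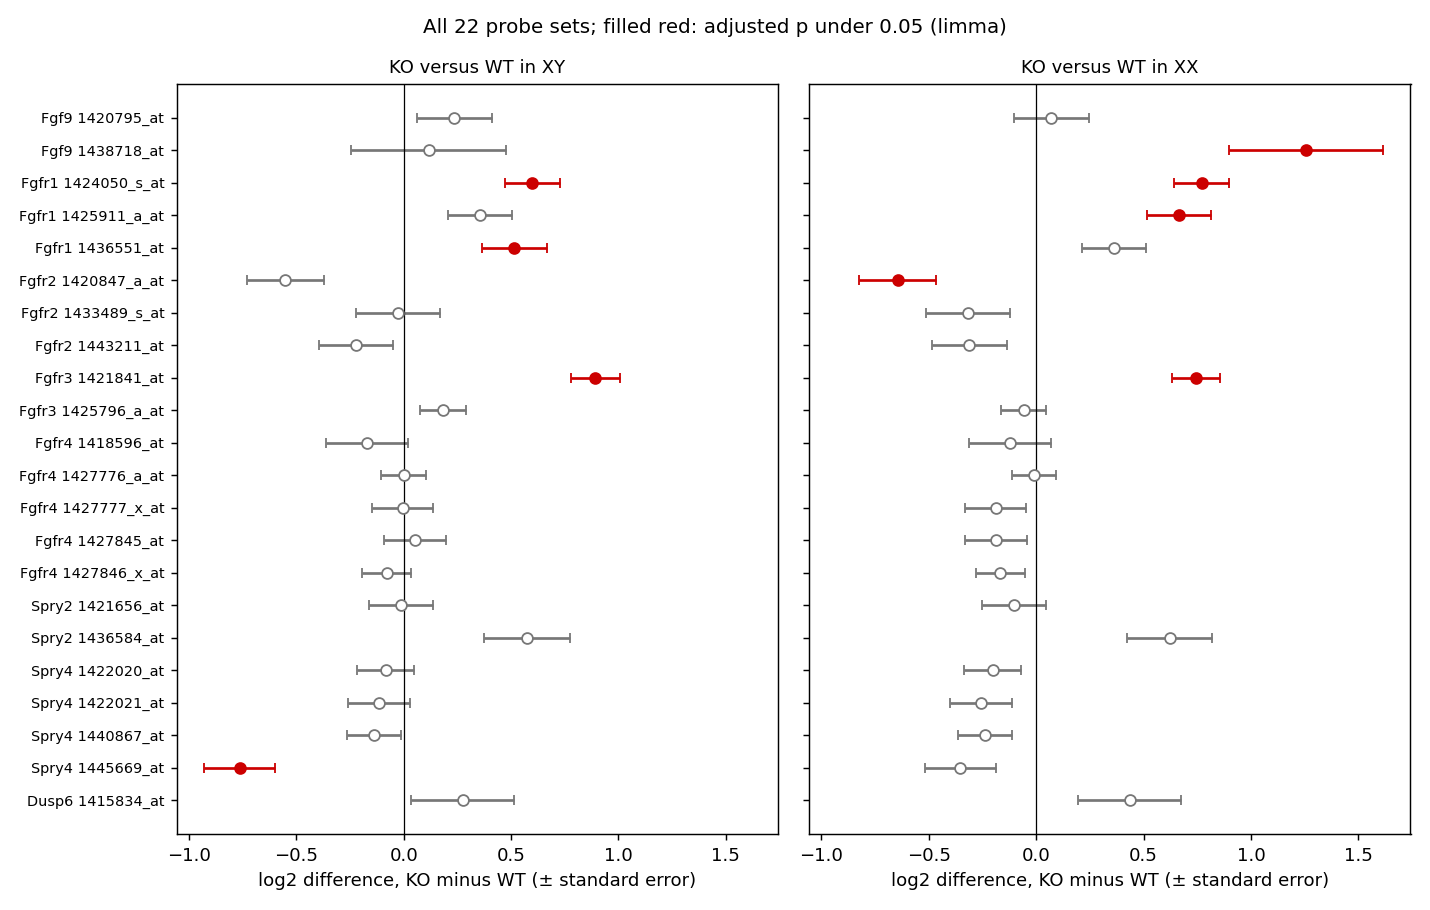
Log2 difference between KO and WT (horizontal axis, with its standard error) for all 22 member probe sets in XY (left) and XX (right) gonads. Filled red points passed an adjusted p of 0.05 by limma: 4 in XY and 5 in XX, with Fgfr1 1424050_s_at and Fgfr3 1421841_at in both.

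Among the feedback genes, Spry2 was higher in the knockout. Its brighter probe set, 1436584_at, read 8.67, 9.42 and 9.17 in WT XX and 9.05, 8.89 and 8.78 in WT XY, against 10.13, 9.53 and 9.46 in KO XX and 9.27, 9.55 and 9.62 in KO XY. Within each sex all KO pools were above all WT pools. Spry2 rose by 0.60 ± 0.14 over both sexes (1.51-fold, adjusted p = 0.0089), while the values of 0.57 ± 0.20 in XY (adjusted p = 0.0984) and 0.62 ± 0.20 in XX (adjusted p = 0.0704) missed the threshold. In XX the value passed without WT XX replicate 2 (0.79, adjusted p = 0.0343) and with the Gapdh covariate (0.73, adjusted p = 0.0265), but was 0.41 without KO XX replicate 1 (adjusted p = 0.257). In XY it passed without WT XX replicate 1 (adjusted p = 0.0393), with array weights (adjusted p = 0.0138) and with only the groups compared (adjusted p = 0.0131), but was 0.23 with the Gapdh covariate (adjusted p = 0.899). The dimmer probe set, 1421656_at, lay at -0.06 ± 0.11 (adjusted p = 0.781), and with both averaged Spry2 no longer passed (0.27, adjusted p = 0.0675).

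Spry4, whose product acts like that of Spry2, was lower in the knockout by 1 of its 4 probe sets. Probe set 1445669_at read 5.39, 5.57 and 4.84 in WT XX and 5.83, 5.68 and 5.87 in WT XY, against 4.93, 5.04 and 4.76 in KO XX and 5.0, 4.88 and 5.20 in KO XY. The WT XY pools were above all KO pools, and 1 WT XX pool, replicate 3, lay among them. Spry4 fell by 0.76 ± 0.17 in XY (to 0.589-fold, adjusted p = 0.0092), a call that ended with the Gapdh covariate (-0.56, adjusted p = 0.384). The value in XX was -0.35 ± 0.17 (adjusted p = 0.221), with -0.57 (adjusted p = 0.0221) without WT XX replicate 3 and -0.20 (adjusted p = 0.526) without WT XX replicate 2. Over both sexes the fall was 0.56 ± 0.12 (adjusted p = 0.00388).

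The other 3 Spry4 probe sets had values from -0.19 to -0.14 over both sexes, none of them called, and the mean of all 4 fell by 0.27 (adjusted p = 0.00831). Spry2 and Spry4 therefore passed the test in opposite directions over both sexes, each by 1 probe set. For Spry2 this was its brighter probe set (mean 9.3 over all arrays). For Spry4 it was 1445669_at (mean 5.2), while the brightest, 1440867_at (mean 5.8), was not called (-0.19, adjusted p = 0.179 by limma).

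Dusp6, the ERK phosphatase gene, was not called between genotypes. Its probe set, 1415834_at, read 8.42, 9.52 and 9.46 in WT XX and 8.58, 9.08 and 8.92 in WT XY, against 9.70, 9.39 and 9.62 in KO XX and 9.25, 8.90 and 9.25 in KO XY. The lowest of the 12 was again WT XX replicate 1, and each KO group overlapped its WT group. The difference was 0.27 ± 0.24 in XY (interval -0.24 to 0.79, adjusted p = 0.594), 0.44 ± 0.24 in XX (interval -0.08 to 0.95, adjusted p = 0.304) and 0.36 ± 0.17 over both sexes (interval -0.01 to 0.72, adjusted p = 0.182). With the Gapdh covariate the XX value was 0.66 (adjusted p = 0.0341). Without WT XX replicate 1 the Dusp6 value was 0.08 in XX (adjusted p = 0.823) and 0.18 over both sexes (adjusted p = 0.334).

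Between XY and XX gonads of the wild type, no member probe set passed the test by limma (2 had an unadjusted p under 0.05), in a comparison where 0.0555% of all probe sets did. Those 2 were Fgf9 1438718_at and Spry4 1445669_at, both higher in XY. Fgf9 was higher by 1.42 ± 0.36 (2.68-fold, interval 0.65 to 2.20, unadjusted p = 0.00146, adjusted p = 0.480), and all 3 WT XY pools were above all 3 WT XX pools. Spry4 was higher by 0.53 ± 0.17 (adjusted p = 0.538), also without overlap. In all, 3 member probe sets did not overlap between the sexes, as did 12.3% of all probe sets. Fgf9 passed without WT XX replicate 2 (1.91, adjusted p = 0.0350), and lay at 1.11 without WT XX replicate 3 (adjusted p = 0.998). Without WT XX replicate 1, Fgfr2 1433489_s_at was lower in XY by 0.66 (difference -0.66, adjusted p = 0.0164) and Dusp6 by 0.63 (difference -0.63, adjusted p = 0.0397). With all arrays these differences were -0.38 and -0.27, and at their smallest they were -0.22 for Fgfr2 without WT XX replicate 3 and -0.08 for Dusp6 without WT XX replicate 2.

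The wild-type sex difference and the XX genotype difference of Fgf9 rest on the same 3 WT XX pools and are not independent of each other. Between XY and XX knockout gonads Fgf9 differed by 0.28 ± 0.36 (interval -0.49 to 1.06, adjusted p = 0.791). In that comparison no member passed (1 had an unadjusted p under 0.05), beside 0.0377% of all probe sets. The probe sets without overlap between the KO sexes were 2, Fgfr1 1425911_a_at (-0.37 ± 0.15, adjusted p = 0.426) and Dusp6 (-0.44 ± 0.24, adjusted p = 0.522), both lower in XY, beside 16.6% of all. No member passed the test of the difference between the XY and XX knockout effects either (1 at an unadjusted p under 0.05, Fgf9), where 0.00666% of all probe sets did. Fgfr3 1421841_at had an interval of -0.20 to 0.49 for that difference and Fgfr1 1424050_s_at one of -0.56 to 0.22. Differences within these bounds are therefore not excluded.

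Next, 7 lists of genes around FGF signalling were read from the same fit, each gene by its brightest probe set. Their counts over both sexes stand beside the 12.5% of all genes that rose and the 9.44% that fell. The lists were chosen with earlier results of these data known, so these counts are a description and not a test. Of 22 FGF ligand genes 1 rose, Fgf13, an intracellular member of the family (0.43 ± 0.11, adjusted p = 0.0112), while its second probe set was at -0.10 and the mean of both did not pass (0.17, adjusted p = 0.170). The median of the ligands was -0.004, beside -0.01 for all genes. Among receptors and co-receptors, Fgfr2 entered by its brightest probe set, which was not called, and not by 1420847_a_at, which fell (-0.60). Of 10 such genes, read in this way, 4 rose and none fell, with a median of 0.10. Besides Fgfr1 and Fgfr3 these were Flrt2 (1.31 ± 0.13, adjusted p = 9.24e-06) and Flrt3 (0.97 ± 0.13, adjusted p = 8.61e-05), membrane proteins that can bind FGF receptors. All 3 Flrt2 and both Flrt3 probe sets passed, and the same 4 genes were the called members of this list in XY, where 11.6% of all genes changed (5.58% upward and 6% downward), and in XX, where 11.9% did (7.28% upward and 4.64% downward). The XY calls of Flrt2 and Flrt3 ended with the Gapdh covariate (0.83, adjusted p = 0.1, and 0.66, adjusted p = 0.151).

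Feedback and target genes went both ways. Of 19 measured, 4 rose and 5 fell over both sexes, with a median of -0.09. Spry1, a further Sprouty gene, rose by 0.56 ± 0.09 (adjusted p = 0.000708) beside Spry2. The immediate early transcription factor gene Egr1 fell by 1.22 ± 0.16 (adjusted p = 0.0001), Ier2, another immediate early gene, by 0.48 ± 0.10 (adjusted p = 0.00253), and the phosphatase genes Dusp4 and Dusp9 by 0.71 ± 0.08 (adjusted p = 2.08e-05) and 0.90 ± 0.15 (adjusted p = 0.000898). In XY gonads 4 of the 19 fell and none rose, and in XX 3 fell and 1 rose. The Dusp4 difference was -1.11 ± 0.11 in XY (adjusted p = 2.25e-05), while in XX it was -0.32 ± 0.11 (adjusted p = 0.101). None of the 19 genes, Dusp4 included, passed the test of the difference between the XY and XX knockout effects.

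Of 17 measured adaptor and RAS-ERK genes 4 rose and 1 fell, with a median of -0.02. The ubiquitin ligase gene Cblb, a negative regulator of receptor kinases, rose by 0.59 ± 0.09 (adjusted p = 0.000422). Nras rose by 0.67 ± 0.12 (adjusted p = 0.0012) by its brightest probe set, while 1 other probe set was lower (-0.28, adjusted p = 0.0498), the third lay at 0.31 and the mean of all 3 did not pass (0.23, adjusted p = 0.0735). The remaining calls, Shc1 (0.27 ± 0.08) and Sos2 (0.36 ± 0.10) upward and the adaptor gene Grb2 (-0.41 ± 0.11) downward, ended without any of 4 arrays for Shc1, 5 for Sos2 and 7 for Grb2. The mean of the Grb2 probe sets was -0.23, still called, while that of the Shc1 probe sets did not pass (0.20, adjusted p = 0.0963). With the Gapdh covariate neither Shc1 (adjusted p = 0.0624) nor Sos2 (adjusted p = 0.110) passed, and Sos2 also missed with array weights (adjusted p = 0.0518). With single arrays left out, the highest value for Shc1 was adjusted p = 0.0734, without WT XY replicate 1. For Sos2 it was adjusted p = 0.0685, without the same array, and for Grb2 adjusted p = 0.0546, likewise.

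**Figure D4:**
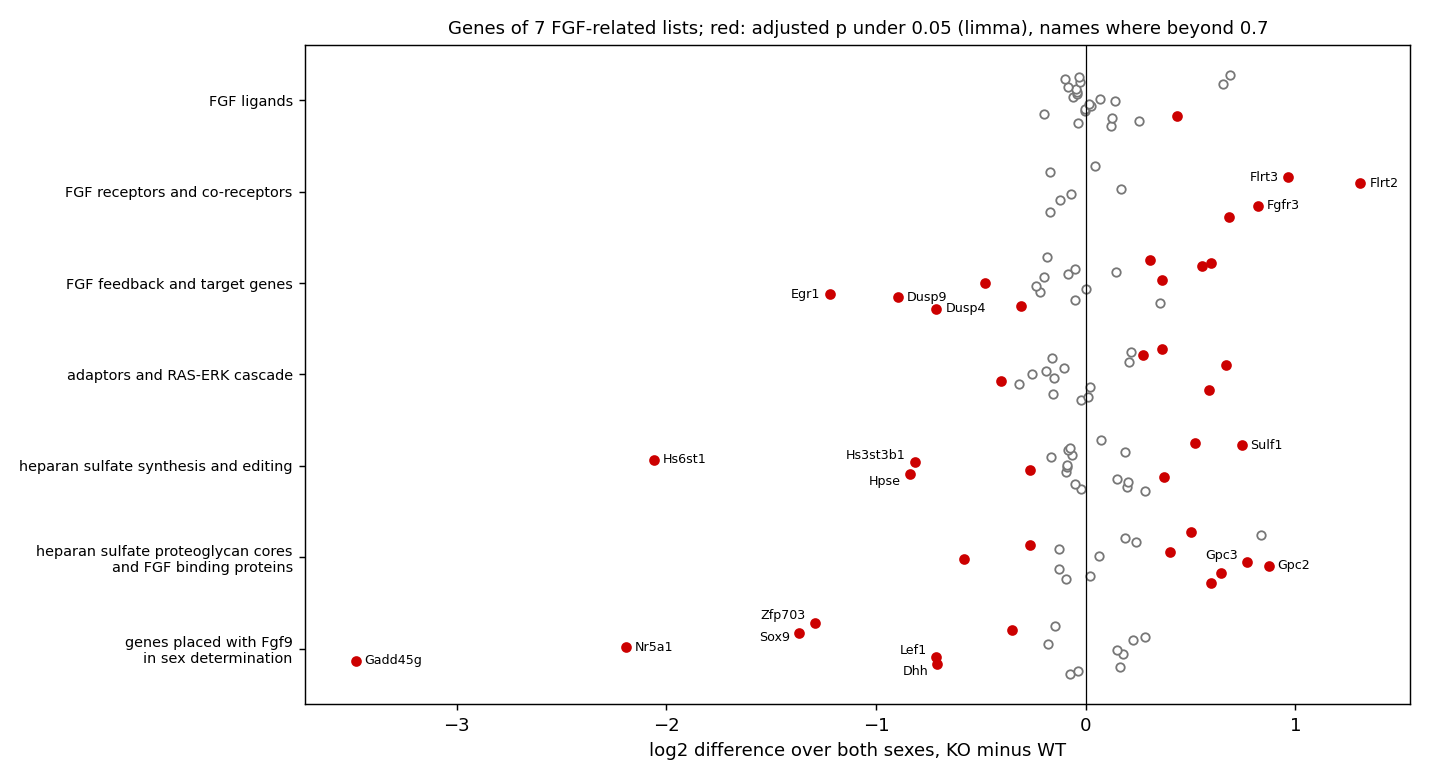
Log2 difference between KO and WT averaged over both sexes (horizontal axis) for the measured genes of 7 lists, each gene by its brightest probe set. Vertical offsets within a list only separate the points. Red points passed an adjusted p of 0.05 by limma, and those beyond 0.7 are named. Receptors and co-receptors that passed all rose, and the sex-determination genes that passed all fell. Fgfr2 is plotted by its brightest probe set, which was not called, and not by the probe set that fell.

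FGF receptors need heparan sulfate, and the largest difference in its enzymes was in Hs6st1, the 6-O-sulfotransferase gene. Its log2 level was 9.28 ± 0.11 in WT XX and 9.38 ± 0.05 in WT XY, against 7.38 ± 0.16 in KO XX and 7.16 ± 0.25 in KO XY. In XY gonads Hs6st1 fell by 2.22 ± 0.13 (adjusted p = 2.38e-07) and in XX gonads it fell by 1.90 ± 0.13 (adjusted p = 1.25e-06), with no overlap, and the call held in all alternatives. Sulf2 and Sulf1, which remove 6-O-sulfates outside the cell, rose by 0.52 ± 0.07 (adjusted p = 0.000105) and 0.74 ± 0.16 (adjusted p = 0.0039) over both sexes. The heparanase gene Hpse fell by 0.84 ± 0.15 (adjusted p = 0.00107) and the 3-O-sulfotransferase gene Hs3st3b1 by 0.82 ± 0.19 (adjusted p = 0.00874). Glce, the epimerase gene, rose by 0.37 ± 0.08 (adjusted p = 0.00601), a call that ended for the mean of its probe sets (0.22, adjusted p = 0.067). In all, 3 of 22 measured synthesis and editing genes rose and 4 fell, with a median of -0.06.

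Of 16 proteoglycan core and FGF binding protein genes 6 rose and 2 fell, with a median of 0.21. The rises included Agrn, the agrin gene (0.60 ± 0.08, adjusted p = 0.000111), Fgfbp3, an FGF carrier (0.64 ± 0.11, adjusted p = 0.000792), Tgfbr3, the betaglycan gene (0.50 ± 0.10, adjusted p = 0.00246), and the glypican genes Gpc3 (0.77 ± 0.15, adjusted p = 0.00274) and Gpc2 (0.87 ± 0.18, adjusted p = 0.00368). Gpc4 fell by 0.58 ± 0.11 (adjusted p = 0.00136) by its brightest probe set, while the other one lay at 0.42 and the mean of both at -0.08 (adjusted p = 0.676). Averaged over all its probe sets, the difference was over 1.5 times smaller than by the brightest, but still called, for Agrn (0.36), Tgfbr3 (0.29), Sulf1 (0.36) and Hs3st3b1 (-0.32).

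Of 16 measured genes placed with Fgf9 in sex determination, 7 fell and none rose, with a median of -0.17. Gadd45g, which acts upstream of Sry, fell by 3.48 ± 0.13 (adjusted p = 5.23e-10), and the orphan receptor gene Nr5a1 fell by 2.19 ± 0.12 (adjusted p = 2.3e-08). Zfp703 fell by 1.29 ± 0.09 (adjusted p = 3.44e-07), Lef1, a transcription factor of the WNT pathway, by 0.71 ± 0.08 (adjusted p = 2.3e-05) and the ligand gene Dhh by 0.71 ± 0.17 (adjusted p = 0.0108). The second Nr5a1 probe set, dim in these arrays, lay at 0.04, and the other Zfp703 probe sets at -0.10 and 0.06. As means of their probe sets Nr5a1 differed by -1.08, Zfp703 by -0.45 and Dhh by -0.35, all still called, while the brightest Dhh probe set did not pass with the Gapdh covariate (-0.55, adjusted p = 0.0546). Sox9, the Sertoli cell factor that Fgf9 is known to sustain, fell by 2.77 ± 0.19 in XY (adjusted p = 6.91e-07), where the Fgf9 value was 0.12 ± 0.36. Its value in XX was 0.03 ± 0.19 (adjusted p = 0.943). Wnt4, the ovarian ligand that Fgf9 is known to oppose, had a difference of -0.53 ± 0.15 in XX (adjusted p = 0.0417), a call that ended in 12 of 22 alternatives at up to adjusted p = 0.148, without WT XX replicate 2. It fell by 0.35 ± 0.11 over both sexes (adjusted p = 0.0348), a call that ended in 9 of 21 alternatives, the highest adjusted p being 0.0983. Rspo1 had a value of 0.22 over both sexes (adjusted p = 0.0737).

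For the other members, the genes whose brightest probe set was most like that of the member over the 12 arrays were found in the same way as for Fgf9, as a description of arrays that share the group differences. Fgfr3 was followed by the potassium channel subunit gene Kcnab1 (r = 0.986), by Fras1 (r = 0.983), an extracellular matrix gene, and by the homeobox gene Meis2 (r = 0.981). Kcnab1 rose by 1.89 ± 0.10 over both sexes (adjusted p = 1.73e-08). Fgfr1 was followed by St6galnac3 (r = 0.964), Cpz (r = 0.960) and Negr1 (r = 0.960), and Fgfr2 by Abhd6 (r = 0.953), Mthfd2 (r = 0.951) and Maob (r = 0.936). For Spry2 the genes were Neurl1b (r = 0.970), Hspa12b (r = 0.969) and Adcy6 (r = 0.963), and for Dusp6 Rbm22 (r = 0.972), Trappc10 (r = 0.960) and Piezo1 (r = 0.949). Fgfr4 was followed by Ttn (r = 0.959) and Mpp2 (r = 0.948), and Spry4 by Tmco2 (r = 0.959). No member was among the 3 genes most like another member.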

How the data were processed

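The deposited values are log2 signals made by the authors with RMA (Affymetrix Expression Console, RMA and affy, per the submitters' processing notes, versions not given in the sources used here). RMA corrects background, quantile-normalizes across arrays and summarises probes. Groups were taken from the genotype field and titles.

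With limma 3.58.1 in R 4.3.3, 4 group means (8 residual degrees of freedom) were fitted on all 45037 non-control probe sets. The 6 contrasts were tested two-sided with default eBayes settings, and calls needed a Benjamini-Hochberg adjusted p under 0.05 within the contrast. Differences are given ± standard error. No filter on low values was applied; a filter tried as an alternative (mean of at least 4.42) kept 19 of 22 member probe sets. Of all probe sets, 34945 had 1 gene in the platform annotation, 932 several and 9160 none. List genes are represented by their brightest probe set. Named are, per list, up to 6 called genes of smallest p over both sexes, plus Sox9, Wnt4 and Rspo1, and the 3 genes most like each member. Members and lists were chosen with earlier results of these data known. For arrays, their number limits precision. Promoter windows are from RefSeq; a missing entry is not shown, and Spry4 sequence is not reported here.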

Additional observations from a re-analysis of the deposited data

Results flagged for a closer look

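Among the results given here, the knockout effect on Sox9 differed between the sexes by a test of that difference itself: -2.80 ± 0.26 on the log2 scale (XY effect minus XX effect, adjusted p = 0.00213 by limma). Sox9 fell by 2.77 in XY and had a value of 0.03 in XX. With the Gapdh measure as a covariate, which cannot be cleanly separated from KO XY, the difference was -2.55 (adjusted p = 0.240). For the mean of all Sox9 probe sets it was -1.79 (adjusted p = 0.000705).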

How the results depend on the processing

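Calls were repeated with other normalization, a low-value filter, another prior, array weights, the replicate number as a block, only the groups compared, the Gapdh covariate, and each array left out. In XX, 3 member probe sets in place of 5 were called after repeated quantile normalization, with array weights, and with only the groups compared. In XY, 1 in place of 4 was called with the Gapdh covariate and 6 with array weights. With single arrays left out, the counts were 3 to 5 in XY, 3 to 6 in XX (3 without KO XX replicate 1, KO XX replicate 3 or WT XY replicate 2), 7 to 8 over both sexes, 0 to 2 between the WT sexes (2 without WT XX replicate 1, 1 without WT XX replicate 2), and 0 in the other comparisons. Of 2674 member values under these alternatives and the gene-level ones, 38 lost a call, 21 gained one and none reversed a called direction; 114 uncalled values changed sign. Of 2188 values of other named genes, 144 lost a call, 51 gained one and none reversed. No pairing of arrays by replicate number was seen, which does not exclude one. Deviations of arrays with the same number correlated at -0.178 to 0.224 and those with different numbers at -0.270 to 0.254. Of the 12 arrays, 3 were closest to one of their own number. With the replicate block 3 member probe sets were called in XY, 5 in XX, 7 over both sexes and 0 elsewhere. Where a setting ended a call and the report names no cause, the cause was not tested.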
